A study of Mus musculus with 8 samples.

Results

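The cytochrome P450 genes measured in neonatal livers lacking myosin Vb are described here. Members were chosen by name: protein-coding mouse genes whose symbol has the form Cyp, a family number, a subfamily letter and a gene number. The 6 genes of bile acid metabolism that share this form (Cyp7a1, Cyp8b1, Cyp27a1, Cyp7b1, Cyp39a1 and Cyp2c70) were left out, which leaves 92 genes of the 48440 in the deposited table. Of these, 68 had 10 or more counts in at least 4 of the 8 libraries and were kept, in 8 families and 24 subfamilies.

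RNA was sequenced from whole liver of 8 CD1 pups. The 4 KO livers (animals 275, 276, 277 and 278) came from pups labelled CD1 germline Myosin5b KO, and the 4 control livers (animals 279, 280, 281 and 282) from pups labelled CD1 germline Myosin5b heterozygous/wildtype, so the controls mix 2 genotypes that the labels do not separate. Pups were 3 to 8 days old; the age, sex and litter of each pup are not in the labels. The deletion is germline, so every cell type of the liver and every other organ lacks the gene. Myosin Vb is an actin motor for recycling endosomes, and in hepatocytes it serves the membrane that lines the bile canaliculus.

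P450 enzymes are heme proteins that insert an oxygen atom into lipids, hormones and drugs. Most sit in the endoplasmic reticulum and draw electrons from P450 reductase (Por) and cytochrome b5, while a small mitochondrial group uses ferredoxin. In liver, families Cyp1, Cyp2 and Cyp3 handle mainly foreign compounds and steroids and family Cyp4 mainly fatty acids. Nuclear receptors set the level of many of them: the aryl hydrocarbon receptor acts on Cyp1a genes, CAR on Cyp2b10, PXR on Cyp3a11 and PPAR-alpha on Cyp4a genes. Mouse liver changes its set of P450 enzymes after birth, and in the adult several are made mainly in 1 sex or 1 zone of the lobule.

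Library totals ran from 15134291 to 18398039 counts in KO livers and from 14228268 to 17007771 counts in controls. Levels are given as CPM, that is counts relative to the TMM-adjusted size of each library, in the order of the animal numbers, and levels of different genes are compared only as CPM per kilobase of exon (RPKM). Tests are edgeR's quasi-likelihood test over 18274 genes with Benjamini-Hochberg adjustment, and a gene is called at an adjusted p under 0.05. Fold changes are KO over control, with their standard error (SE). Myo5b itself was lower in KO livers (log2 fold change -1.43, SE 0.18, adjusted p = 3.14e-04), and its 4 KO values lay below the 4 control values. The labels do not say which exons the allele lacks, so the Myo5b count is not a measure of intact mRNA.

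Several sets of cell type markers differed between the groups, and single libraries stood apart from their own group. Both apply to every result that follows. The defining hepatocyte markers were abundant in every library, with a summed level of 82050 to 94810 CPM in KO livers and 104800 to 132300 CPM in controls, and of the 8 markers 1 was called higher (Ahsg) and 2 lower (Alb and Ttr). All 11 erythroid markers tested were called lower, with a summed level of 2007 to 4098 CPM in KO livers and 8042 to 10600 CPM in controls. Of the Kupffer cell markers 7 of 8 were called higher, summing to 1396 to 1634 CPM in KO livers and 777.2 to 894.4 CPM in controls, and all 5 endothelial markers were called higher, summing to 811.5 to 962.5 CPM in KO livers and 613.0 to 664.2 CPM in controls. Of 6 stellate cell markers 3 were called higher and 1 lower, and none of 5 cholangiocyte markers was called. KO liver 278 had the highest erythroid level of the KO livers, and for 20 of the 29 called P450 genes it was the KO liver nearest the control median. Control liver 280 carried adrenal transcripts (53.3 CPM summed over 7 adrenal markers, against 2.79 to 4.16 CPM in the other controls and 2.90 to 5.52 CPM in KO livers). In these whole-liver samples, fewer cells of a type and less RNA per cell cannot be told apart.

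Of the 67 P450 genes that could be tested, 29 (43.3%) were called, against 20.7% of all genes tested. There were 13 higher in KO livers, where 9.27% of all genes were, and 16 lower, where 11.4% were. The 13 that rose were Cyp2a4, Cyp2c29, Cyp2c37, Cyp2c39, Cyp2c67, Cyp2d9, Cyp2d10, Cyp2d11, Cyp2d12, Cyp4a32, Cyp4b1, Cyp17a1 and Cyp26b1. The 16 that fell were Cyp1a1, Cyp1a2, Cyp2a22, Cyp2b10, Cyp2b13, Cyp2c54, Cyp2f2, Cyp2g1, Cyp2j5, Cyp2j9, Cyp2u1, Cyp3a11, Cyp3a25, Cyp3a41b, Cyp3a59 and Cyp4f14. The change exceeded 2-fold for 7 that rose and 10 that fell. At an unadjusted p under 0.05 there were 39 (58.2%), against 32.6% of all genes tested. For 9 genes every KO value lay above every control value and for 14 every KO value lay below, together 34.3% against 23.6% of all genes tested (10.8% above, 12.8% below). The median log2 fold change over the 67 genes was -0.07, against 0.01 over all genes tested. These counts cover genes kept by a minimum count, and Cyp2b10 passed it through the control livers alone. Cyp2b10 is among the 16 that fell and the 14 with every KO value below.

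With the mean erythroid level as a covariate, Cyp2f2 and Cyp4f14 alone kept their call among the 29, and 10 of the 27 that lost it changed direction (Cyp1a1, Cyp1a2, Cyp2a4, Cyp2c29, Cyp2c37, Cyp2c67, Cyp2g1, Cyp3a41b, Cyp4a32 and Cyp4b1). That covariate correlated with genotype at -0.942 over the 8 libraries and raised the variance of the genotype estimate 8.94-fold, so genotype and erythroid level cannot be told apart in this design. Y-linked transcripts were found in KO liver 277 and control livers 279 and 281 (232.7 to 238.4 CPM summed over 4 genes, against at most 0.486 CPM in the other 5). With their level as a covariate 11 P450 genes were higher and 12 lower, against 8.12% and 10.4% of all genes; the calls of Cyp1a1, Cyp2b13, Cyp2c37, Cyp2g1, Cyp3a41b and Cyp4b1 were lost.

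**Figure D1:**
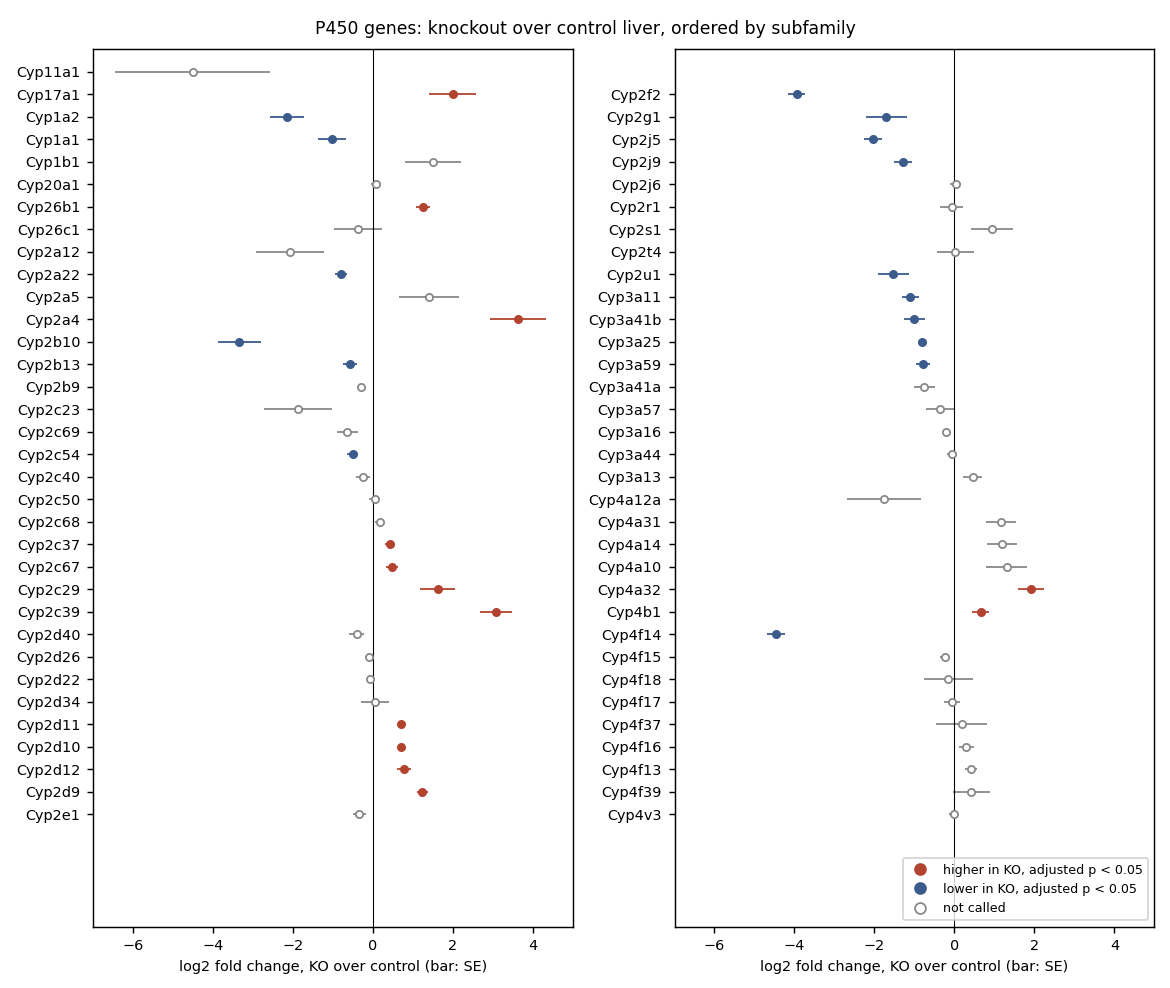
Log2 fold change of each of the 67 tested P450 genes, KO over control liver (horizontal axis), with its SE as a bar; filled points passed an adjusted p of 0.05. Cyp4f14 (-4.46) and Cyp2f2 (-3.95) fell furthest among called genes and Cyp2a4 (3.62) and Cyp2c39 (3.08) rose furthest.

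Summed over the family, the P450 share of counts overlapped between the groups. Within it the shares of several subfamilies did not, among them Cyp2d, Cyp3a, Cyp2j and Cyp1a. The 68 genes took 0.585%, 0.575%, 0.565% and 0.580% of all counts in the KO livers, against 0.564%, 0.645%, 0.643% and 0.580% in the controls. The means were 0.576% ± 0.00875 in KO livers and 0.608% ± 0.0421 in controls (SD, n = 4 each), a ratio of 0.947, and the ranges overlapped. Within the P450 counts, the fatty acid hydroxylases of subfamily Cyp4a took 22.5%, 26.2%, 23.1% and 8.57% in KO livers, against 6.07%, 8.85%, 6.78% and 8.80% in controls. KO liver 278 alone lay inside the control range. The Cyp3a share was 19.8% ± 4.39 in KO livers and 28.45% ± 1.06 in controls (SD, n = 4 each, here and for the next shares). The Cyp2d share was 16.4% ± 0.556 in KO livers and 11.9% ± 0.763 in controls. The Cyp2j share was 1.29% ± 0.268 in KO livers and 3.53% ± 0.220 in controls, and the Cyp1a share 0.616% ± 0.368 in KO livers and 2.435% ± 0.538 in controls. Among smaller shares, Cyp2f was at 0.0459% ± 0.0144 in KO livers and 0.643% ± 0.149 in controls, without overlap. Cyp26b, Cyp17a and Cyp1b did not overlap either. Cyp2c, Cyp2e, Cyp2b, Cyp2a and Cyp4f overlapped. These shares are a description without a test.

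**Figure D2:**
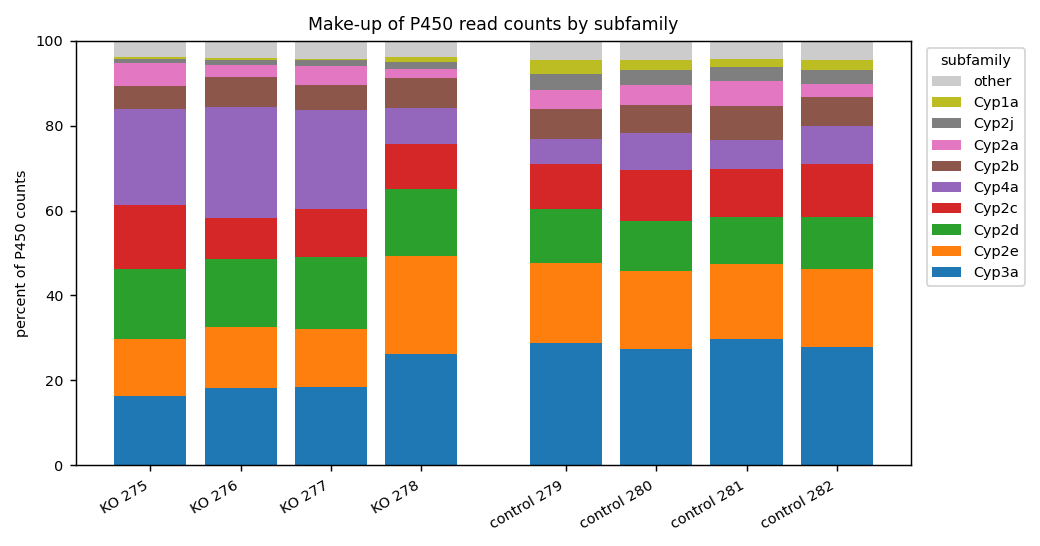
Percent of all P450 counts (vertical axis) taken by each subfamily in each of the 8 livers, KO livers at left and controls at right. Cyp4a took 22.5% to 26.2% in 3 KO livers and 8.57% in KO liver 278, against 6.07% to 8.85% in controls.

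Per kilobase of exon, Cyp2e1, the ethanol-oxidising enzyme of pericentral hepatocytes, was the most abundant P450 in both groups, at 421 ± 124 RPKM in KO livers and 530 ± 40.7 RPKM in controls (SD, n = 4 each). Cyp4a14 held rank 2 in KO livers (256 ± 98.2 RPKM) and rank 7 in controls (113 ± 25.8 RPKM). Cyp2d26 was at 192 ± 15.6 RPKM in KO livers and 206 ± 19.2 RPKM in controls, and Cyp2b9 at 179 ± 19.6 RPKM in KO livers and 218 ± 25.0 RPKM in controls; in each group these 2 differed by less than their SDs. Of the 10 most abundant P450 genes in controls, 7 were also among the 10 most abundant in KO livers. Cyp3a11 held rank 12 in KO livers (63.7 ± 19.98 RPKM) and rank 5 in controls (137 ± 18.7 RPKM).

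Cyp4f14 fell furthest of the called P450 genes. It was the only call among 8 Cyp4f genes tested, where 20.7% of all genes tested were called. The family Cyp4f enzymes hydroxylate the end of leukotrienes and other long fatty acid chains, and mouse Cyp4f14 inactivates leukotriene B4. Cyp4f14 (chr17:32905070-32917342, minus strand, GRCm38) had 1.62, 1.21, 0.685 and 0.850 CPM in KO livers, against 25.3, 23.5, 23.0 and 24.6 CPM in controls. The fold was 22.0 in favour of the controls (log2 fold change -4.46, SE 0.22, adjusted p = 2.79e-09), and the groups were far apart with little spread in either. None of the other 7 Cyp4f genes kept was called: Cyp4f13 was at 0.41 (SE 0.15, adjusted p = 0.0617), and Cyp4f15, Cyp4f16, Cyp4f17, Cyp4f18, Cyp4f37 and Cyp4f39 at -0.24 to 0.42. Cyp4f13, the gene next to Cyp4f14, was called higher without KO liver 278 (0.54), and Cyp4f15 lower (-0.35). Cyp4f13 was also called with upper-quartile scaling, library size alone and no low-count filter. Cyp4f14 was called in each of the other 23 settings run, with -4.72 to -4.29 in those without a covariate for the erythroid level and -4.76 with it.

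Cyp2f2 fell nearly as far. Cyp2f2, a naphthalene-oxidising enzyme that in adult mouse liver marks periportal hepatocytes, lies at chr7:27119909-27133660 on the plus strand. It had 2.44, 1.79, 2.37 and 3.76 CPM in KO livers, against 50.3, 41.2, 38.7 and 29.9 CPM in controls. The highest KO value stood far below the lowest control, and the fold was 15.4 in favour of the controls (log2 fold change -3.95, SE 0.21, adjusted p = 2.98e-08). The annotated antisense gene Gm15883 overlaps part of its exons, and whether the counting used strand is not stated. With the erythroid covariate Cyp2f2 was at -3.06 (SE 0.59, adjusted p = 0.0389).

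**Figure D3:**
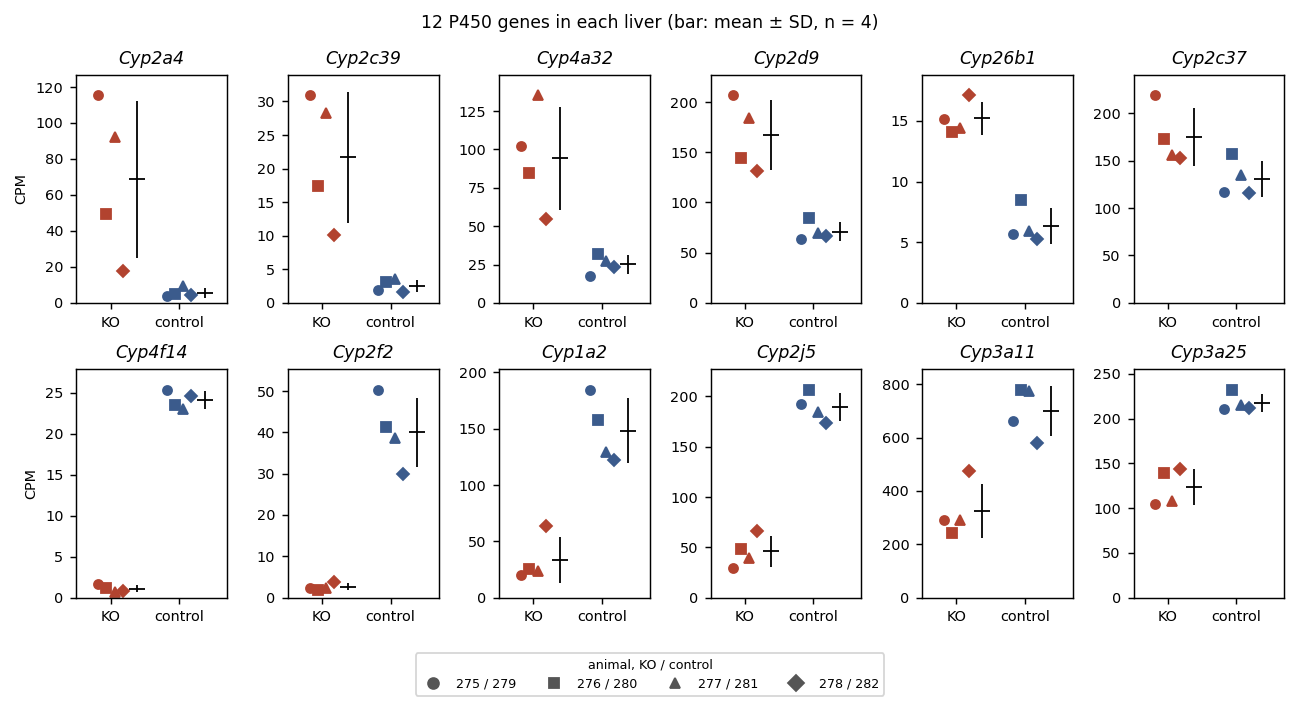
CPM of 12 P450 genes in each liver (vertical axis, linear scale from 0), KO livers in red at left and controls in blue at right, with mean ± SD (n = 4 each). Cyp4f14 stood at 0.685 to 1.62 CPM in KO livers and 23.0 to 25.3 CPM in controls. KO liver 278 was the KO liver nearest the controls for every gene shown except Cyp4f14 and Cyp26b1.

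Among targets of the aryl hydrocarbon receptor, the dioxin sensor, both Cyp1a genes fell and Cyp1b1 was not called. Cyp1a2, the caffeine-oxidising enzyme of pericentral hepatocytes (chr9:57676937-57683703, minus strand), had 19.8, 25.8, 23.8 and 64.0 CPM in KO livers, against 184, 158, 129 and 122 CPM in controls. KO liver 278 stood apart from the other 3 KO livers but still below every control (log2 fold change -2.16, SE 0.43, adjusted p = 0.0149). Its neighbour Cyp1a1, an inducible enzyme that is low in untreated liver, averaged 1.45 ± 0.498 CPM in KO livers and 2.94 ± 0.665 CPM in controls (mean ± SD, n = 4 each; log2 fold change -1.02, SE 0.35, adjusted p = 0.0496). That call sits at the threshold: it was lost without KO liver 275 (-0.94), 276 (-0.91) or 277 (-0.98), without control liver 279 (-0.90), 280 (-0.95) or 282 (-1.07), and with median-ratio (-1.01) or upper-quartile scaling (-0.99), library size alone (-0.94), scaling on secreted hepatocyte proteins (-1.02), no low-count filter (-1.02) and non-robust dispersion (-1.02). Cyp1a2 lost its call without KO liver 276 alone among the libraries (-2.06, adjusted p = 0.0504). Cyp1b1 was at 1.51 (SE 0.69, adjusted p = 0.149), from 1.37 to 3.16 CPM in KO livers and 0 to 1.40 CPM in controls, and was called with no low-count filter. The receptor gene Ahr fell (log2 fold change -0.39, SE 0.11, adjusted p = 0.0215) and its partner Arnt rose (0.34, SE 0.08, adjusted p = 0.0085).

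Classical targets of CAR and PXR, the receptors for drugs and bile acids, moved in both directions: of 4 kept, Cyp2b10 and Cyp3a11 fell and Cyp2c29 and Cyp2c37 rose. Among all genes tested, 11.4% fell and 9.27% rose. Cyp2b10, the standard CAR target (chr7:25897620-25926624, plus strand), was low throughout, at 0.232, 0.128, 0.211 and 0.121 CPM in KO livers, against 1.95, 1.48, 1.43 and 2.52 CPM in controls. No KO library reached 10 counts for it and every control did, so it was kept through the control livers alone. Its separation of the groups is thus tied to that minimum and is given as a description (log2 fold change -3.34, SE 0.54, adjusted p = 2.81e-04). Cyp3a11, the main PXR target and the major drug-oxidising enzyme of adult mouse liver (chr5:145854426-145879964, minus strand), had 292, 242, 291 and 473 CPM in KO livers, against 663, 778, 775 and 581 CPM in controls. Its groups did not overlap, with KO liver 278 again nearest the controls (log2 fold change -1.11, SE 0.21, adjusted p = 0.00663). The receptor genes themselves were not called: Nr1i3 (CAR) was at 0.32 (SE 0.13, adjusted p = 0.112) and Nr1i2 (PXR) at 0.14 (SE 0.10, adjusted p = 0.353).

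The other 2 Cyp2b genes kept lie in the same cluster as Cyp2b10 and, in the adult, are made mainly in females. Cyp2b13 had 19.8, 23.4, 21.1 and 20.4 CPM in KO livers, against 30.3, 27.1, 44.8 and 22.4 CPM in controls. The KO values were tightly grouped and overlapped the lowest control (log2 fold change -0.56, SE 0.17, adjusted p = 0.0332). The call was lost without KO liver 275 (-0.53), 276 (-0.62), 277 (-0.57) or 278 (-0.54), without control liver 279 (-0.58) or 281 (-0.33), with library size alone (-0.49) and in limma-voom (-0.53). Cyp2b9, much more abundant at 335 ± 36.8 CPM in KO livers and 408 ± 47.0 CPM in controls, missed the threshold (log2 fold change -0.28, SE 0.10, adjusted p = 0.0518) and passed it without KO liver 278 (-0.34) or control liver 282 (-0.33), in DESeq2 (adjusted p = 0.04215), with scaling on secreted hepatocyte proteins, with no low-count filter and without genes above 1% of counts.

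In subfamily Cyp3a, 4 of 9 genes fell and none was called higher, where 11.4% of all genes tested fell and 9.27% rose. Cyp3a25 (chr5:145977194-146009618, minus strand) had 104, 139, 108 and 143 CPM in KO livers, against 210, 232, 216 and 212 CPM in controls. The groups stood well apart (log2 fold change -0.81, SE 0.10, adjusted p = 2.80e-05). Cyp3a59, its near copy, had 25.0, 35.0, 18.3 and 26.03 CPM in KO livers, against 43.2, 53.6, 36.8 and 46.9 CPM in controls (log2 fold change -0.79, SE 0.17, adjusted p = 0.00537). Cyp3a41b had 25.6, 34.4, 27.9 and 58.1 CPM in KO livers, against 66.0, 70.8, 83.7 and 71.0 CPM in controls (log2 fold change -0.9995, SE 0.26, adjusted p = 0.0306). The last is a female-predominant gene in the adult and cannot be told from Cyp3a41a, as given under the copies. Its call was lost without KO liver 276 (-0.98) or 277 (-0.90) and without control liver 279 (-1.04), 280 (-1.01), 281 (-0.93) or 282 (-1.01).

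The other 5 Cyp3a genes kept were not called. Cyp3a16, the fetal and neonatal form, had 188, 193, 224 and 262 CPM in KO livers, against 229, 239, 288 and 249 CPM in controls (log2 fold change -0.22, SE 0.11, adjusted p = 0.175). Cyp3a44 averaged 235 ± 42.7 CPM in KO livers and 246 ± 26.9 CPM in controls (log2 fold change -0.07, SE 0.12, adjusted p = 0.748). Cyp3a41a, which cannot be told from the called gene Cyp3a41b, was at -0.76 (SE 0.26, adjusted p = 0.0925). Cyp3a57 was at -0.35 (SE 0.36) and Cyp3a13, which lies apart from the cluster, at 0.45 (SE 0.24). Without KO liver 278, Cyp3a16 (-0.32) and Cyp3a41a (-1.09) were called lower, and without both that liver and control liver 282 Cyp3a44 was too (-0.27). Cyp3a41a was also called lower with all 8 libraries in DESeq2 (adjusted p = 0.0322), in limma-voom (adjusted p = 0.0056) and with non-robust dispersion.

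Short promoter windows of Cyp3a11, which fell, and of Cyp3a16, which was not called, show how alike these genes of 1 cluster are upstream. Each line gives the 250 bases before the RefSeq start site, 5′ to 3′ on the gene's strand (GRCm38.p6), with capitals for TATAAA and for CAAAGTCCA, a binding site of the hepatocyte factor HNF4. The windows are chr5:145879855-145880104 and chr5:145469724-145469973, both on the minus strand.
Cyp3a11: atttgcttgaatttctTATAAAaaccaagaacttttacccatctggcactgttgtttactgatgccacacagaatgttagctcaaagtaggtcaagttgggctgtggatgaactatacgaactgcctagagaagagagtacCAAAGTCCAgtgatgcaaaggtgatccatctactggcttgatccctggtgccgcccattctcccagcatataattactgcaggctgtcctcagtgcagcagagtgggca
Cyp3a16: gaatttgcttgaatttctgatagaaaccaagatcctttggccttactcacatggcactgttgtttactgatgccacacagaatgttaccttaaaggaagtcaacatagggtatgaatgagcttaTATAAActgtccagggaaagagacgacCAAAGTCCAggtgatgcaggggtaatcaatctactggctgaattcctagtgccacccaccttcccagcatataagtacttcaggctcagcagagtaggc
The windows were 76.2% identical over 261 aligned columns. The HNF4 site began 109 bases before the start of Cyp3a11 and 99 bases before that of Cyp3a16, so both windows hold it.

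In subfamily Cyp2d, 4 of 8 genes rose and none fell, where 9.27% of all genes tested rose and 11.4% fell. The 4 follow each other among the kept genes of the cluster on chromosome 15, in the order Cyp2d11, Cyp2d10, Cyp2d9 and Cyp2d12. Cyp2d9, a testosterone hydroxylase that is male-predominant in the adult (chr15:82433437-82456845, plus strand), had 207, 145, 184 and 131 CPM in KO livers, against 63.5, 84.3, 69.2 and 66.1 CPM in controls (log2 fold change 1.24, SE 0.14, adjusted p = 6.72e-05). Cyp2d10 (chr15:82402846-82407195, minus strand) had 227, 218, 230 and 202 CPM in KO livers, against 133, 129, 145 and 127 CPM in controls (log2 fold change 0.72, SE 0.08, adjusted p = 8.14e-06). Cyp2d11 (chr15:82389154-82394022, minus strand) had 70.7, 68.0, 72.9 and 58.0 CPM in KO livers, against 40.1, 43.5, 42.1 and 38.6 CPM in controls (log2 fold change 0.71, SE 0.10, adjusted p = 4.78e-05). All 3 separated the groups with room between them and were called in every other setting without the erythroid covariate or a minimum fold. Cyp2d12, the least abundant of the 4, had 10.8, 9.84, 11.2 and 9.16 CPM in KO livers, against 6.30, 5.83, 5.28 and 6.52 CPM in controls (log2 fold change 0.78, SE 0.17, adjusted p = 0.00413). The coding sequences of Cyp2d10 and Cyp2d11 were 94.7% identical, and 64.2% and 62.8% of their 50-base stretches were unique to them. Reads can thus be assigned to the wrong one, and their counts were not summed.

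The Cyp2d genes at either side of these 4 were not called. Cyp2d22 had 104 to 111 CPM in KO livers and 109 to 122 CPM in controls (log2 fold change -0.06, SE 0.08, adjusted p = 0.615). Cyp2d26, the most abundant of the subfamily per length, had 322 to 386 CPM in KO livers and 331 to 408 CPM in controls (-0.10, SE 0.09, adjusted p = 0.487). Cyp2d34 was at 0.06 (SE 0.35) and Cyp2d40 at -0.41 (SE 0.18, adjusted p = 0.121). Cyp2d40 was the 1 gene whose groups did not overlap without a call.

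The promoter windows of the 3 abundant Cyp2d genes that rose together are printed below, again 250 bases before the RefSeq start (GRCm38.p6), with TATAAA in capitals on either strand, so that TTTATA is the same motif read on the other strand. They are chr15:82452127-82452376 (plus strand) for Cyp2d9, chr15:82407195-82407444 (minus strand) for Cyp2d10 and chr15:82394023-82394272 (minus strand) for Cyp2d11. The RefSeq start of Cyp2d9 lies 18940 bases downstream of the GENCODE start of the gene.
Cyp2d9: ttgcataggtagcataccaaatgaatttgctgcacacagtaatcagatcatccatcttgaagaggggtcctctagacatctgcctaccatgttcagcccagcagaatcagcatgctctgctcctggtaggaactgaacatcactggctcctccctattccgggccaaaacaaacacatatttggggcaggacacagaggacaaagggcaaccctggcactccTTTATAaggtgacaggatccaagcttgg
Cyp2d10: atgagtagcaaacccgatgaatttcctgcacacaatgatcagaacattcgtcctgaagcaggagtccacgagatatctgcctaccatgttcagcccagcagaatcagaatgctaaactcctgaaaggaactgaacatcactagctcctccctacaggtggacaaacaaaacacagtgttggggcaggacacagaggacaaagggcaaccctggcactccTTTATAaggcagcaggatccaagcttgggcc
Cyp2d11: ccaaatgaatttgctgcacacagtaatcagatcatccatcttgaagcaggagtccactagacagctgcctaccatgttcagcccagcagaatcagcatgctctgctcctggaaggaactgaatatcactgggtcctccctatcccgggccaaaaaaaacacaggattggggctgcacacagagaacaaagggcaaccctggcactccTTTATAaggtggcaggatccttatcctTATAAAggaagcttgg
Identity was 82.3% between Cyp2d9 and Cyp2d10, 82.3% between Cyp2d9 and Cyp2d11 and 75.8% between Cyp2d10 and Cyp2d11. The motif lay 28, 31 and 43 bases before the start of Cyp2d9, Cyp2d10 and Cyp2d11, and Cyp2d11 held another 16 bases before its start.

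Subfamily Cyp2c, on chromosome 19, had 4 genes that rose and 1 that fell of 10, where 9.27% of all genes tested rose and 11.4% fell. Cyp2c39, which in mouse oxidises retinoic acid (chr19:39510862-39568529, plus strand), had 30.9, 17.4, 28.3 and 10.1 CPM in KO livers, against 1.88, 3.08, 3.503 and 1.68 CPM in controls. Every KO value was above every control, with a wide spread among KO livers (fold 8.48; log2 fold change 3.08, SE 0.40, adjusted p = 7.31e-04). In the same cluster Cyp2c29, an arachidonic acid epoxygenase and CAR target, had 9.28, 5.18, 4.58 and 1.46 CPM in KO livers, against 2.21, 1.68, 1.43 and 1.33 CPM in controls. KO liver 278 lay inside the control range (log2 fold change 1.62, SE 0.44, adjusted p = 0.0161). Cyp2c37 had 219, 172, 156 and 153 CPM in KO livers, against 116, 157, 134 and 116 CPM in controls (log2 fold change 0.42, SE 0.12, adjusted p = 0.0282). Cyp2c67 had 60.5, 51.1, 82.7 and 57.5 CPM in KO livers, against 38.8, 43.8, 54.4 and 43.4 CPM in controls (log2 fold change 0.48, SE 0.14, adjusted p = 0.0287). Cyp2c37 and Cyp2c67 thus differed by less than 1.5-fold and overlapped the controls.

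Cyp2c54, which fell, lies next to Cyp2c37 and had 37.8, 25.8, 26.9 and 29.8 CPM in KO livers, against 41.0, 48.5, 37.4 and 44.3 CPM in controls (log2 fold change -0.51, SE 0.13, adjusted p = 0.00907). It overlapped the controls by KO liver 275 alone. Its coding sequence was 95.1% identical to that of Cyp2c37, and that of Cyp2c67 was 97.7% identical to that of Cyp2c69. Reads can thus be assigned to the wrong copy, and the counts of these copies were not summed. The calls of the 3 smaller rises depended on single libraries. Cyp2c29 lost its call without KO liver 275 (1.17) or control liver 280 (1.62), 281 (1.55) or 282 (1.53) and in limma-voom (1.37). Cyp2c37 lost it without KO liver 275 (0.29) or 276 (0.42) or control liver 279 (0.37), 281 (0.43) or 282 (0.36). Cyp2c67 lost it without KO liver 275 (0.50) or 277 (0.31), without control liver 279 (0.41), 280 (0.47) or 282 (0.46), and without KO liver 278 and control liver 282 together (0.50). Among the 5 not called, Cyp2c68, Cyp2c50 and Cyp2c40 were at 0.18, 0.04 and -0.25 and Cyp2c69 at -0.65 (SE 0.26, adjusted p = 0.138). Cyp2c23 (also named Cyp2c44), an epoxygenase, had 113, 9.91, 20.9 and 14.8 CPM in KO livers, against 115, 189, 96.5 and 186 CPM in controls (log2 fold change -1.88, SE 0.85, adjusted p = 0.192). It was called lower without KO liver 275 (-3.26, adjusted p = 0.00495), in limma-voom and with non-robust dispersion, as was Cyp2c69 in both of these fits.

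Subfamily Cyp2a held the largest rise beside genes that fell or were not called. Cyp2a4, a steroid hydroxylase that is female-predominant in the adult (chr7:26307169-26315088, plus strand), had 115, 49.6, 92.1 and 17.5 CPM in KO livers, against 3.64, 4.76, 9.56 and 4.21 CPM in controls. Every KO value exceeded every control, and KO liver 275 had 6.6 times the level of KO liver 278 (fold 12.3; log2 fold change 3.62, SE 0.70, adjusted p = 0.0141). Cyp2a5, the coumarin hydroxylase (chr7:26835305-26843548, plus strand), had 91.1, 10.9, 30.7 and 14.1 CPM in KO livers, against 10.3, 19.04, 10.2 and 16.4 CPM in controls. Its KO mean rested on livers 275 and 277 (log2 fold change 1.40, SE 0.75, adjusted p = 0.267), and it was at 0.42 without KO liver 275. Cyp2a22 had 94.3, 55.4, 78.6 and 66.5 CPM in KO livers, against 105, 140, 131 and 137 CPM in controls, without overlap (log2 fold change -0.80, SE 0.15, adjusted p = 0.00291). Cyp2a12 was at -2.08 (SE 0.85, adjusted p = 0.15), with control liver 282 (22.5 CPM) far under the other controls (139 to 234 CPM); it was called in DESeq2 and with non-robust dispersion.

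Cyp2a4 and Cyp2a5 differ at few bases in their coding sequence and in their promoters, which are printed for that reason (250 bases before the RefSeq start, plus strand, GRCm38.p6, chr7:26306942-26307191 and chr7:26835089-26835338, TATAAA in capitals).
Cyp2a4: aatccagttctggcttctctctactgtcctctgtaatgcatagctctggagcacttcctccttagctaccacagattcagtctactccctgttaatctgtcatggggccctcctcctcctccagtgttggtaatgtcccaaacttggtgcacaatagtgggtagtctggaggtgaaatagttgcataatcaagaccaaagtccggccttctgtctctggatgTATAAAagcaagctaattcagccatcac
Cyp2a5: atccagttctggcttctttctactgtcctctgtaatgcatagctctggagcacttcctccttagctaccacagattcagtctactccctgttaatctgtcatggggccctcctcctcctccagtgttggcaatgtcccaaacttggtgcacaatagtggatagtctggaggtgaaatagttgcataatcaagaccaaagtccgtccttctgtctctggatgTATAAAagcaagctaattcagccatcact
The 2 windows were 97.6% identical and the coding sequences 98.45% identical. Of all 50-base stretches of Cyp2a4 transcripts, 61.2% occur in no other gene of the annotation, and 36.1% are shared with Cyp2a5. The log2 ratio of Cyp2a4 to Cyp2a5 counts was 0.310 to 2.19 in KO livers and -1.99 to -0.087 in controls. With the counts of both genes summed, the rise was 2.43 (SE 0.62, adjusted p = 0.0391).

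**Figure D4:**
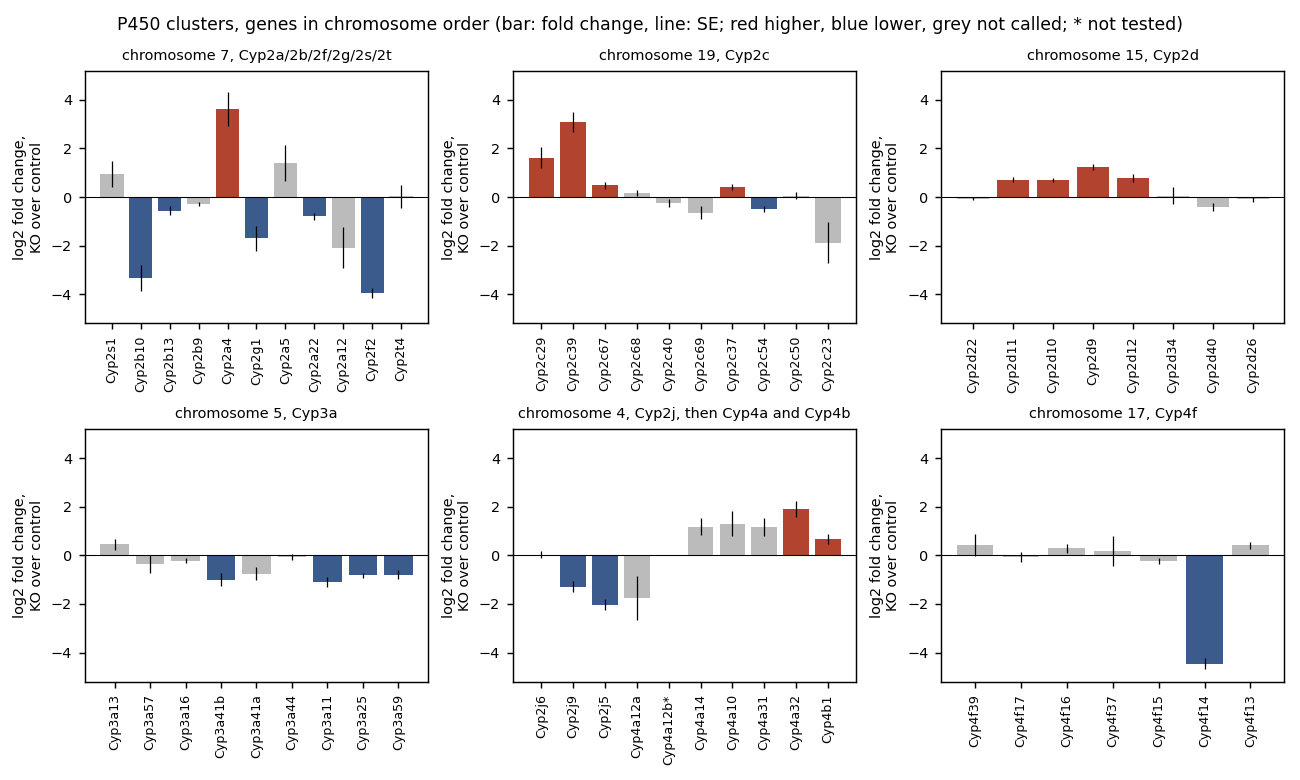
Log2 fold change, KO over control (vertical axis, lines: SE), for P450 genes in chromosome order within 6 clusters; red bars were called higher and blue bars lower. The 4 consecutive kept genes Cyp2d11 to Cyp2d12 rose together (0.71 to 1.24), while Cyp4f14 (-4.46) was the 1 called gene among 7 Cyp4f genes on chromosome 17.

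The Cyp4a genes, targets of PPAR-alpha whose enzymes hydroxylate the end of fatty acid chains, gave 1 call of 5 tested. That is near the 20.7% called among all genes tested. The gene called, Cyp4a32, was not called once summed with its near copies Cyp4a10 and Cyp4a31 (1.36, adjusted p = 0.0569). Cyp4a32 (chr4:115600969-115621602, plus strand) had 102, 84.7, 135 and 54.4 CPM in KO livers, against 17.4, 32.1, 27.6 and 23.3 CPM in controls, without overlap (log2 fold change 1.91, SE 0.32, adjusted p = 0.00666). Cyp4a14, the most abundant of them, had 735, 842, 802 and 290 CPM in KO livers, against 223, 382, 269 and 300 CPM in controls (log2 fold change 1.18, SE 0.37, adjusted p = 0.0711). Cyp4a10 had 299, 325, 220 and 67.2 CPM in KO livers, against 59.7, 126, 84.2 and 98.4 CPM in controls (log2 fold change 1.31, SE 0.52, adjusted p = 0.14). Cyp4a31 had 176, 201, 106 and 74.2 CPM in KO livers, against 48.3, 61.7, 52.7 and 87.4 CPM in controls (log2 fold change 1.16, SE 0.37, adjusted p = 0.0809). In each of these 3 the livers of animals 275, 276 and 277 stood above all controls and liver 278 stood among them. Without KO liver 278, Cyp4a14 (1.43, adjusted p = 6.10e-05), Cyp4a10 (1.61, adjusted p = 0.0111) and Cyp4a31 (1.37, adjusted p = 0.0286) were called higher; all 3 were also called with all 8 libraries in DESeq2 and with non-robust dispersion, and Cyp4a14 and Cyp4a31 in limma-voom. Ppara itself fell slightly (log2 fold change -0.25, SE 0.08, adjusted p = 0.0283).

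Cyp4a12a, the male-predominant Cyp4a gene of adult liver, had 0.174, 0.192, 2.95 and 1.58 CPM in KO livers, against 6.17, 4.69, 5.17 and 0.841 CPM in controls (log2 fold change -1.76, SE 0.92, adjusted p = 0.238; -2.70 without KO liver 277). Its copy Cyp4a12b was too low to test. Cyp4b1, which lies beyond Cyp4a32 and in mouse is best known from lung, had 14.3, 17.1, 17.5 and 9.59 CPM in KO livers, against 8.38, 10.7, 6.77 and 11.4 CPM in controls. KO liver 278 lay inside the control range (log2 fold change 0.66, SE 0.21, adjusted p = 0.0335). The call of Cyp4b1 was lost without KO liver 275 (0.67), 276 (0.57) or 277 (0.55), without control liver 279 (0.61) or 281 (0.53), with scaling on secreted hepatocyte proteins (0.66) and in limma-voom (0.66).

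Of the Cyp2j epoxygenases, which act on arachidonic acid, 2 of 3 fell, where 11.4% of all genes tested did. Cyp2j5 (chr4:96628773-96664154, minus strand) had 29.9, 48.8, 39.2 and 66.4 CPM in KO livers, against 192, 206, 184 and 174 CPM in controls. The highest KO liver stood well below the lowest control (fold 4.11 in favour of the controls; log2 fold change -2.04, SE 0.23, adjusted p = 5.27e-04). Cyp2j9 had 2.73, 3.26, 3.27 and 4.86 CPM in KO livers, against 7.47, 9.32, 8.55 and 9.19 CPM in controls (log2 fold change -1.29, SE 0.22, adjusted p = 5.15e-04). Cyp2j6, on the far side of Cyp2j9, averaged 23.2 ± 1.99 CPM in KO livers and 22.6 ± 3.40 CPM in controls (log2 fold change 0.03, SE 0.13, adjusted p = 0.901).

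P450 genes of retinoid, steroid and vitamin D metabolism were scarce. Cyp26b1, which breaks down retinoic acid (chr6:84571414-84593908, minus strand), had 15.1, 14.1, 14.4 and 17.1 CPM in KO livers, against 5.71, 8.51, 5.94 and 5.26 CPM in controls. Here KO liver 278 was the KO liver farthest from the controls (log2 fold change 1.26, SE 0.18, adjusted p = 8.68e-05). Cyp17a1, of androgen synthesis, had 1.57, 1.09, 2.27 and 2.31 CPM in KO livers, against 0.260, 0.804, 0.059 and 0.701 CPM in controls (log2 fold change 1.99, SE 0.59, adjusted p = 0.0236). Its call was lost without KO liver 277 (1.85) or 278 (1.85), without control liver 279 (1.80) or 281 (1.61), and without KO liver 278 and control liver 282 together (2.14). Cyp2r1, a vitamin D hydroxylase, was at -0.07 (SE 0.29) and Cyp26c1 at -0.37 (SE 0.60), and neither was called.

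Cyp11a1, the mitochondrial enzyme that starts steroid synthesis from cholesterol, had 0, 0.128, 0.211 and 0.728 CPM in KO livers, against 0.909, 23.1, 0.119 and 0.701 CPM in controls. The value of control liver 280 made up nearly all of its counts, and its log2 fold change (-4.51, SE 1.93, adjusted p = 0.168) was not called. It was at -1.09 without that liver (adjusted p = 0.5055) and -5.66 without KO liver 278, and was called with non-robust dispersion. The adrenal genes Cyp11b1 and Cyp21a1, which were not kept, had 208 and 400 counts in that library and at most 4 and 6 in any other. Without control liver 280, 11 P450 genes were higher and 14 lower, against 7.33% and 9.47% of all genes.

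Among the remaining genes the 2 that were called were low. Cyp2u1, a fatty acid hydroxylase, had 1.62, 0.703, 1.79 and 3.34 CPM in KO livers, against 5.58, 7.84, 4.81 and 3.37 CPM in controls (log2 fold change -1.53, SE 0.39, adjusted p = 0.0102). The antisense gene 4930534D22Rik overlaps its exons. Cyp2g1, known from olfactory tissue, averaged 1.44 ± 0.940 CPM in KO livers and 4.66 ± 3.07 CPM in controls (mean ± SD, n = 4 each; log2 fold change -1.70, SE 0.52, adjusted p = 0.0348), and lost its call without KO liver 275 (-1.52), 276 (-1.74) or 277 (-1.46) or control liver 279 (-1.70) or 281 (-1.17). Cyp2e1 had 782, 803, 741 and 1306 CPM in KO livers, against 1100, 1267, 1146 and 1066 CPM in controls. KO liver 278 exceeded every control while the other 3 KO livers lay below them all (log2 fold change -0.33, SE 0.17, adjusted p = 0.205), and without liver 278 Cyp2e1 was called lower (-0.56, adjusted p = 1.32e-04), as it was with no low-count filter. Cyp20a1, an orphan P450, stayed close to 20 CPM, at 19.2 ± 2.55 CPM in KO livers and 18.2 ± 1.49 CPM in controls (log2 fold change 0.07, SE 0.13, adjusted p = 0.75). Cyp4v3 was at -0.02 (SE 0.11), Cyp2t4 at 0.02 (SE 0.46) and Cyp2s1 at 0.95 (SE 0.53), none of them called.

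**Figure D5:**
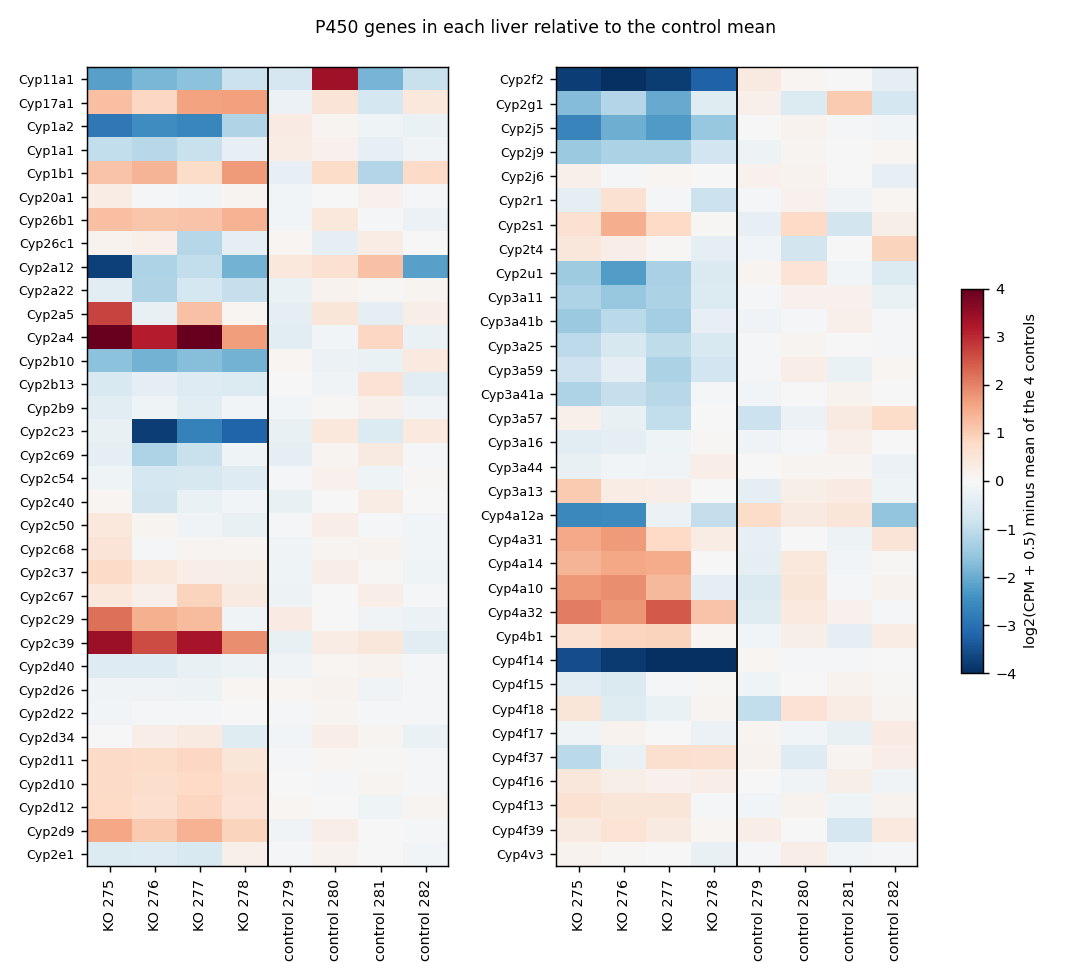
Level of each tested P450 gene in each liver, as log2(CPM + 0.5) minus the mean of the 4 controls (colour; red higher, blue lower), KO livers left of the line and controls right of it. KO liver 278 is paler than the other KO livers for Cyp4a10, Cyp4a14, Cyp4a31, Cyp4a32, Cyp1a2, Cyp3a11, Cyp3a41a and Cyp3a41b, and control liver 280 stands out for Cyp11a1.

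Sorted by the sex or zone in which adult mouse liver makes them, the genes moved in both directions. Of 8 female-predominant genes 2 rose (Cyp2a4 and Cyp17a1) and 2 fell (Cyp2b13 and Cyp3a41b), though Cyp3a41b was not called once summed with its copy Cyp3a41a (-0.81, adjusted p = 0.0755). Of 3 male-predominant genes tested Cyp2d9 rose and Cyp2u1 fell. Of 8 pericentral genes 2 rose (Cyp2c29 and Cyp2c37) and 3 fell (Cyp1a2, Cyp2c54 and Cyp3a11), with a median log2 fold change of -0.15. The periportal gene Cyp2f2, which is in none of these sets, fell (log2 fold change -3.95, SE 0.21, adjusted p = 2.98e-08). Over all genes tested, 9.27% were called higher and 11.4% lower, the shares to set beside each count in this paragraph. The growth hormone receptor gene Ghr, through which the adult sex difference is set, fell (log2 fold change -1.26, SE 0.11, adjusted p = 1.06e-06), with 104 to 133 CPM in KO livers and 236 to 314 CPM in controls. Cux2, a female-predominant repressor in adult liver, rose (0.48, SE 0.12, adjusted p = 0.00782), and Stat5b, Stat5a and Bcl6 were not called. In all, 2 of 14 receptors and regulators were higher (Arnt and Cux2) and 3 lower (Ahr, Ppara and Ghr). Hnf4a had 336 to 409 CPM in KO livers and 340 to 366 CPM in controls (log2 fold change 0.07, SE 0.08, adjusted p = 0.617).

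The partners of P450 enzymes changed by small amounts. Of 11 electron donors and heme genes, 2 rose and 4 fell, where 9.27% and 11.4% of all genes tested did. Por, which passes electrons to the enzymes of the endoplasmic reticulum, had 462, 475, 485 and 500 CPM in KO livers, against 386, 406, 311 and 377 CPM in controls, without overlap (log2 fold change 0.38, SE 0.09, adjusted p = 0.00586). Hmox1, which degrades heme, rose by 0.72 (SE 0.08, adjusted p = 1.27e-05). Those that fell were the ferredoxin gene Fdx1 (-0.77, SE 0.11, adjusted p = 7.22e-05), Alas1, the first step of heme synthesis in liver (-0.43, SE 0.12, adjusted p = 0.0125), the cytochrome b5 gene Cyb5a (-0.36, SE 0.09, adjusted p = 0.0119) and the heme-binding protein gene Pgrmc2 (-0.34, SE 0.11, adjusted p = 0.0438).

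Many P450 genes have copies so alike that reads can be assigned to the wrong one, and the treatment of reads with several matches is not stated. Coding sequences were at least 95% identical in 18 pairs of kept genes within a subfamily. The closest pair, Cyp3a41a and Cyp3a41b, was 99.9% identical, and 1.39% and 6.50% of their 50-base stretches were unique to them. With their counts summed the log2 fold change was -0.81 (SE 0.26, adjusted p = 0.0755), so neither of the 2 can be called on its own. For Cyp4a10, Cyp4a31 and Cyp4a32 summed, it was 1.36 (SE 0.39, adjusted p = 0.0569). Besides these Cyp3a41 and Cyp4a groups, only Cyp2a4 with Cyp2a5 and Cyp4a12a with Cyp4a12b were summed. That left 12 higher and 15 lower of 63 tested, against 1693 and 2087 of all 18270 genes tested. The other pairs were not summed, among them those with Cyp2a22, Cyp2c37, Cyp2c54, Cyp2c67, Cyp3a25 or Cyp3a59. In an exact two-sided permutation test of the log2 ratio within each pair, added after the data were seen, 9 of the 18 pairs reached p = 0.0286, the smallest that 4 against 4 allows; adjusted over the 18 pairs this was 0.0572, so no pair passed.

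Across the family, promoters of 300 bases (250 before and 50 after the RefSeq start) were found for 54 of the 68 kept genes. The motif TATAAA was present on either strand in 25 of them (46.3%), against 15.7% of 27025 genes. The HNF4 site CAAAGTCCA was present in 8 (14.8%), all of them Cyp2c or Cyp3a genes, against 0.555% of all genes. The HNF6 core ATTGAT was in 14 (25.9%, against 8.63%), the nuclear receptor core site AGGTCA in 16 (29.6%, against 18.1%), the STAT site TTCNNNGAA in 2 (3.70%, against 9.55%) and the core of the aryl hydrocarbon receptor element, GCGTG, in 11 (20.4%, against 35.2%), among them Cyp1a1 and Cyp1b1. None of the 6 motifs contains another. Copies share their promoters, so the genes are not independent.

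Of the 24 genes not kept, Cyp24a1 and Cyp2j7 had no count in any library, and 18 reached 10 counts in none, with at most 33 counts over the 8 libraries. Just outside the minimum, Cyp2c38 and Cyp2c55 reached 10 counts in 3 libraries (98 and 77 counts in all), and just inside it Cyp11a1, Cyp2b10 and Cyp4a12b reached it in 4. Of the 68 kept, 57 had 10 counts in every library. Of the 67 tested, 13 were under 5 CPM in both groups, and 4 of these were called.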

How the data were processed

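RNA from whole liver was measured in 4 KO and 4 control pups, each library 1 animal. The authors deposited raw read counts by Ensembl identifier. They aligned to a build written GRMm38 (taken as GRCm38) using Rsubread 2.20.0 and BiocManager 1.30.26 in R 4.4.1, per the labels' protocols; featureCounts did the counting, per the submitters' processing notes, and DESeq2 1.46.0 their test, per the design text of the series. Annotation, strand setting and the handling of reads with several matches: not given in the sources used here.

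Symbols and coordinates came from GENCODE M21 (48058 of 48440 genes matched). Genes were kept by filterByExpr (minimum count 10, minimum total 15), scaled by TMM and tested with edgeR 4.0.16's robust quasi-likelihood F-test (limma 3.58.1, R 4.3.3), adjusted over all 18274 genes. Each SE is the absolute log2 fold change over the square root of F. Ratios between copies used counts plus 0.5. Promoters came from RefSeq (GRCm38.p6). The test was checked on data simulated with the same dispersion for every gene and no outlying library. That check does not cover calls that rest on single livers. Values per library are given for called genes with a mean of at least 5 CPM in a group and for the most abundant gene of each family without one; others were named after their values were seen. The members, lists and tests were chosen with earlier results of these data known. Alternatives were other scalings, filters, dispersions, DESeq2 1.42.0, limma-voom, a minimum fold of 1.5, erythroid and Y-linked covariates, omission of the 10 genes above 1% of counts, summed copies and each library left out; omission of KO 278 with control 282 was added after the data were seen. Figures used matplotlib 3.10.9.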

Additional observations from a re-analysis of the deposited data

Results flagged for a closer look

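In 7 of 134 groups of 4 livers, 1 liver stood farther from the other 3 than Dixon's 95% limit allows; chance alone gives about 1 in 20. Control liver 280 accounted for 4 of these: it had 23.1 CPM of Cyp11a1 (other controls 0.119 to 0.909 CPM), 60.6 CPM of Cyp2c50 (47.0 to 48.1 CPM), 121.9 CPM of Cyp2d22 (108.7 to 109.4 CPM) and 70.3 CPM of Cyp4v3 (53.9 to 54.8 CPM). KO liver 278 accounted for 2, with 64.0 CPM of Cyp1a2 (other KO livers 19.8 to 25.8 CPM) and 1306 CPM of Cyp2e1 (740.9 to 802.6 CPM). KO liver 275 had 113 CPM of Cyp2c23 (other KO livers 9.91 to 20.9 CPM).

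Outside the kept genes, control liver 280 had 208 counts of Cyp11b1 and 400 counts of Cyp21a1, both adrenal enzymes of steroid synthesis, against at most 4 and 6 counts in any other library. The adrenal genes Star (28.5 CPM), Dbh (2.82 CPM) and Th (2.28 CPM) were high in the same liver.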

How the results depend on the processing

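No paired analysis was possible because the 2 groups share no replicate number. Outside the erythroid covariate and the minimum fold, 18 of the 29 called P450 genes (7 higher, 11 lower) were called in all 21 other settings, Cyp2a4 with summed copies only as its sum with Cyp2a5. The 11 lower include Cyp2b10, which was kept through the control livers alone. Cyp4a32 was called in the 20 where it has a value of its own, and its sum with Cyp4a10 and Cyp4a31 was not (1.36, adjusted p = 0.0569). Leaving out 1 library gave 9 to 16 P450 genes higher and 11 to 21 lower (the last including the omission of KO 278 with control 282), 1223 to 1762 and 1699 to 2167 of all genes, 4 to 6 and 4 to 7 partners and regulators, 0.925 to 0.967 for the ratio of the P450 share of all counts, and -1.67 to -1.28 for the targeted gene Myo5b (log2). A minimum fold of 1.5 left 4 P450 genes higher and 5 lower, 217 and 500 of all genes, and 0 and 1 partners and regulators. With the erythroid covariate these counts were 0 and 2, 23 and 19, and 0 and 0 (1517 genes at an unadjusted p under 0.05), and Myo5b was at -0.96, not called.

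In that fit the called genes that changed direction stood at 0.20 (Cyp1a1), 0.06 (Cyp1a2), -1.10 (Cyp2a4), -1.78 (Cyp2c29), -0.26 (Cyp2c37), -0.19 (Cyp2c67), 0.43 (Cyp2g1), 0.50 (Cyp3a41b), -0.26 (Cyp4a32) and -0.38 (Cyp4b1). The uncalled ones stood at -2.29 (Cyp2a5), -0.82 (Cyp2c50), -0.34 (Cyp2c68), 0.22 (Cyp2d26), -1.60 (Cyp2d34), 0.68 (Cyp2e1), -0.33 (Cyp2j6), -0.76 (Cyp2s1), -0.32 (Cyp2t4), -1.05 (Cyp3a13), 0.21 (Cyp3a16), 0.74 (Cyp3a41a), 0.52 (Cyp3a44), 0.25 (Cyp3a57), -1.99 (Cyp4a10), -1.25 (Cyp4a14), -0.51 (Cyp4f13), 0.10 (Cyp4f15) and 0.01 (Cyp4f17). The cause was not tested.

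No called gene changed direction elsewhere. Of the uncalled, with main values of at most 0.18 in size, the Y-linked covariate turned Cyp2c50 (-0.01) and Cyp2t4 (-0.04), library size alone Cyp2d22 (0.01), Cyp2r1 (0.00), Cyp3a44 (0.00) and Cyp4v3 (0.05), upper-quartile scaling Cyp4v3 (0.01), and limma-voom Cyp4f18 (0.08) and Cyp4f37 (-0.24). Omitting libraries gave values on both sides of 0 for Cyp20a1 (-0.01 to 0.13), Cyp2c50 (-0.11 to 0.14), Cyp2d34 (-0.09 to 0.23), Cyp2j6 (-0.07 to 0.09), Cyp2r1 (-0.43 to 0.16), Cyp2t4 (-0.23 to 0.69), Cyp3a44 (-0.27 to 0.01), Cyp4f17 (-0.17 to 0.11), Cyp4f18 (-0.51 to 0.17), Cyp4f37 (-0.19 to 0.55) and Cyp4v3 (-0.08 to 0.08). Genes under 5 CPM rest on few counts, which limits their precision, and p-values measure the spread between animals of unrecorded age and litter.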
